A study of Mus musculus with 45 samples.

Results

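Alveolar macrophages (AM) from the males among the SP-A knockout (KO) mice were compared between ozone (O3) and filtered air (FA), over every miRNA listed for these males. The KO males were 8 of the 45 mice of the series, 4 after O3 and 4 after FA, and 328 miRNAs were listed for them, of 476 listed for any genotype and sex. All 8 were C57BL/6 mice that lack SP-A, 12 weeks old and exposed for 3 h. Their AM were taken by bronchoalveolar lavage after 18 h of recovery. FA and O3 mice thus shared the deletion, the age, the length of exposure and the time of recovery. The groups set beside them were 8 KO females (4 after each exposure, with synchronized estrous cycles), 6 SP-A2 males (3 after each exposure, carrying the human SP-A2 (1A0) variant) and 7 co-ex males (4 after FA and 3 after O3, carrying SP-A1/SP-A2, 6A2/1A0), the last 2 on the same SP-A KO background. The data hold miRNAs only, so the loss of SP-A was taken from the labels and could not be checked.

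AM are the resident phagocytes of the air space, and SP-A (surfactant protein A) is a collectin of the surfactant that binds them and modulates their response to inhaled oxidants such as O3. A miRNA is cut from a hairpin precursor, from its 5p or its 3p arm, and guides the silencing complex to messenger RNAs that pair with its seed, bases 2 to 8 from the 5′ end, so that miRNAs with the same seed can share targets. Some miRNAs are typical of cell lineages: miR-223 and miR-142 of blood cells, miR-200 and miR-34b/c of epithelium, miR-143, miR-145 and miR-199 of mesenchymal cells, miR-126 of endothelium, and miR-486, miR-451 and miR-144 of red cells.

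Mature sequences were matched by name in RefSeq (GRCm38.p6) for 286 of the 328 miRNAs, and those of the miRNAs that differed most clearly are shown first, 5′ to 3′, with the seed in capitals. The first set holds miRNAs with a number of 1000 or higher in their name, which were found late in the naming of mouse miRNAs and have few known functions.
miR-6240: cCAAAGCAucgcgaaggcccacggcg
miR-2137: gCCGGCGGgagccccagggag
miR-6236: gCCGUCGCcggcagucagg
miR-6538: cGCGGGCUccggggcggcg
miR-5126: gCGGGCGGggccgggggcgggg
miR-3060-5p: gGGAGUGCuucgugcuucug
The 7 miRNAs of this kind that rose and have a sequence, with miR-1961 below, were between 17 and 26 bases long. G and C made up between 35.3% and 100% of them (median 78.9%), against a median of 50% over the 286. The uncalled miRNAs of this kind were not compared separately. The origin of the reads assigned to these names was not tested. miR-6240 lies at chr5:114851973-114851998 (+) and miR-6236 at chr9:110281353-110281371 (+), where GENCODE M21 (GRCm38) lists no other gene. miR-2137 at chrX:72992113-72992133 (+), miR-6538 at chr12:26414970-26414988 (-) and miR-3060-5p at chr11:4139377-4139396 (+) lie in introns of Zfp185, Rnf144a and Rnf215, on the strand of the gene. miR-5126 at chr1:84695890-84695911 (+) overlaps a UTR of Dner on the opposite strand.

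The second set shows miR-1961 beside members of the let-7 family, because it carries their seed and rose, while none of the let-7 arms passed the test.
miR-1961: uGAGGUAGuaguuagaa
let-7g-5p: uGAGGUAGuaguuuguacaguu
let-7a-5p: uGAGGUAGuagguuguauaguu
let-7c-5p: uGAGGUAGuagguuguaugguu
let-7b-5p: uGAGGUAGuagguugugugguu
The first 13 bases of miR-1961, of 17, are those of let-7g-5p and let-7i-5p, and its first 11 are those of let-7a-5p, let-7b-5p, let-7c-5p and let-7f-5p. miR-1961 lies at chr5:92788465-92788481 (-), opposite an intron of Shroom3. Counted from the 5′ end of let-7a-5p, let-7c-5p differs from it by A19G and let-7b-5p by A17G and A19G.

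The third set shows the miRNAs that rose and are typical of mesenchymal or epithelial cells or belong to older families.
miR-99a-5p: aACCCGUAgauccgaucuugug
miR-100-5p: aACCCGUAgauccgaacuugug
miR-125b-5p: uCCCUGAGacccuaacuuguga
miR-199b-3p: aCAGUAGUcugcacauugguua
miR-92b-3p: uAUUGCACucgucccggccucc
miR-34b-3p: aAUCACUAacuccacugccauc
miR-99a-5p and miR-100-5p share their seed and differ by A16U, counted on miR-100-5p. miR-199b-3p has the same mature sequence as miR-199a-3p, so its reads cannot be assigned to 1 gene, and miR-125b-5p comes from 2 genes, on chromosomes 9 and 16.

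The deposited values are normalized values, read numbers scaled by 1 factor per mouse, from which the reads were recovered. Read totals over the listed miRNAs were between 720987 and 2884013 in the FA mice and between 180625 and 579220 in the O3 mice, so that every O3 mouse had fewer recovered miRNA reads than every FA mouse. The depth of the libraries themselves is unknown. O3 replicate 4 had the fewest recovered reads and 155 miRNAs at 0, against 16 to 93 in the other O3 mice and 28 to 40 in the FA mice. Recovered read total and exposure cannot be told apart in these mice, and a miRNA at 0 in a mouse with few reads can be low rather than absent. Across miRNAs, Spearman's correlation ran from 0.787 to 0.868 for the 6 pairs of FA mice, from 0.688 to 0.855 for the 6 pairs of O3 mice and from 0.658 to 0.785 for the 16 pairs of an FA and an O3 mouse. The leukocyte and macrophage markers (8 arms of miR-142a, miR-223, miR-146a, miR-155 and miR-21a) took between 5.31% and 11.1% of the signal after FA and between 3.06% and 10.9% after O3, and none of them was at 0 in all mice of a group.

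O3 was followed by a rise of 16 miRNAs and a fall of 1, of 328 tested (limma on log2(normalized value + 1), adjusted p below an FDR of 0.1). The called miRNAs were thus 4.88% of all in the upward and 0.305% in the downward direction. The 16 that rose took between 0.538% and 1.92% of a mouse's signal after FA and 18.2%, 8.04%, 19.1% and 4.36% after O3. As these 16 were chosen for a rise in the same mice, a larger share after O3 follows from the choice. They comprise 9 miRNAs numbered 1000 or higher, 5 of the mesenchymal list, miR-34b-3p of the epithelial list and miR-92b-3p, a relative of the miR-17-92 cluster. Of the 17 called miRNAs, 14 had O3 and FA mice that did not overlap. Over all 328, every O3 mouse lay above every FA mouse for 20 miRNAs (6.1%) and below for 9 (2.74%). The median log2 difference of all 328 was -0.29, and 141 were positive. Over the 135 miRNAs with a nonzero value in all 8 mice the median was 0.20, 78 were positive, and 14 of the 17 calls were among them.

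**Figure D1:**
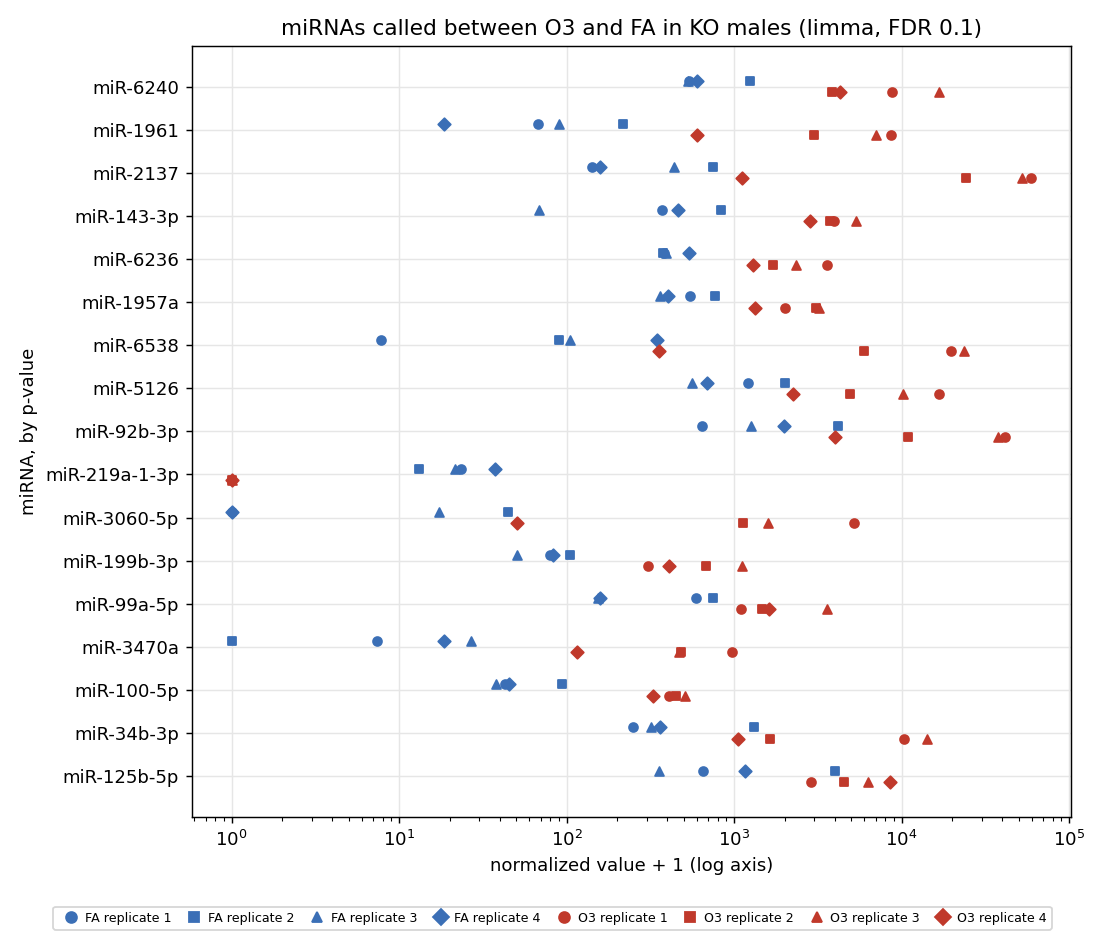
Normalized value + 1 on a log axis in each of the 8 KO males for the 17 called miRNAs, with FA mice in blue, O3 mice in red and a marker shape for each replicate number. In 13 of the 16 rows called higher, all red points lie right of all blue points, and O3 replicate 4 is the lowest of the O3 mice in 12 of the 16.

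**Figure D2:**
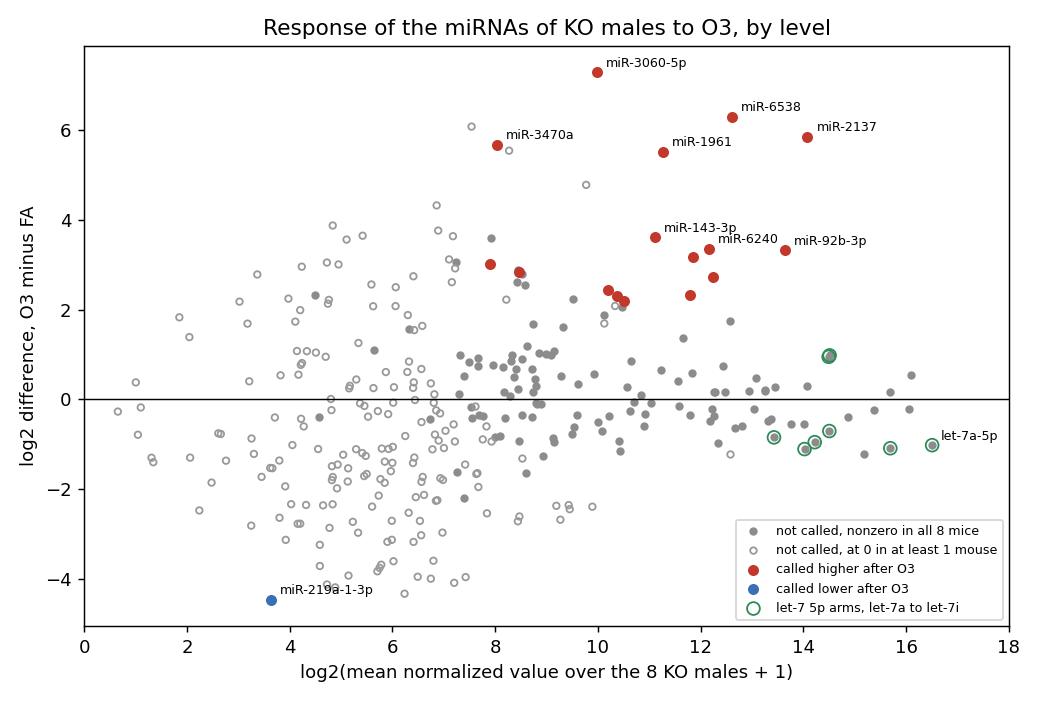
Log2 difference of O3 minus FA of all 328 miRNAs against the log2 of their mean normalized value + 1 over the 8 KO males. The called miRNAs are filled in red (higher) and blue (lower), open grey circles are miRNAs at 0 in at least 1 mouse, and green rings mark let-7 5p arms, of which let-7b-5p and let-7c-5p lie above 0 and the others below.

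Among the miRNAs numbered 1000 or higher, 9 of 77 rose, 0 fell and 68 were not called, while the median log2 difference of the 77 was -0.10 and 35 were positive. For comparison, 16 of all 328 miRNAs rose and 141 were positive. miR-2137 stood at 142, 749, 437 and 157 in the FA mice and at 59395, 24177, 51967 and 1115 in the O3 mice. All O3 mice lay above all FA mice, but the lowest O3 mouse was only 1.49 times the highest FA mouse. The means were 371 ± 286 and 34163 ± 26743 (SD, n = 4 each), a ratio of 92.1 and a log2 difference of 5.86 ± 1.08 (SE, limma adjusted p = 0.0135). After O3, this miRNA alone took 5.83%, 2.71%, 5.33% and 0.162% of the signal of the 4 mice, against at most 0.0857% after FA.

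miR-6240 had the smallest adjusted p. Its values were 539.7, 1241, 531 and 602 after FA and 8726, 3861, 16773 and 4256 after O3, so that the lowest O3 mouse was 3.11 times the highest FA mouse. The log2 difference was 3.36 ± 0.52 (limma adjusted p = 0.0096). miR-6538 went from 6.75, 88.4, 104 and 345 to 19687, 5929, 23551 and 355, where O3 replicate 4 lay at the level of FA replicate 4 (log2 difference 6.30 ± 1.35, limma adjusted p = 0.0254). miR-5126 went from 1215, 2018, 556 and 684 to 16635, 4893, 10219.5 and 2233 (log2 difference 2.74 ± 0.62, limma adjusted p = 0.0315).

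Smaller but more even rises were seen for miR-6236 and miR-1957a. miR-6236 stood at 381, 377, 391 and 536 after FA and at 3563, 1698, 2324 and 1298 after O3, a ratio of means of 5.27 (limma adjusted p = 0.0151). miR-1957a stood at 543, 766, 358 and 402 after FA and at 2018, 3088, 3199.9 and 1336 after O3, a ratio of 4.66 (limma adjusted p = 0.0227). For both, the highest O3 mouse was less than 3 times the lowest (2.75 and 2.40 times), whereas for miR-2137 it was 53.3 times and for miR-6538 66.3 times.

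miR-3060-5p and miR-3470a were near the limit of detection after FA. miR-3060-5p was at 0, 43.6, 16.3 and 0 after FA and at 5189, 1129, 1597 and 49.6 after O3 (log2 difference 7.30 ± 1.81, limma adjusted p = 0.0504). Behind its FA values stood between 0 and 36 reads, and behind its O3 values between 13 and 2610. miR-3470a was at 6.39, 0, 25.9 and 17.6 after FA and at 976, 480.4, 469.9 and 115 after O3 (log2 difference 5.68 ± 1.49, limma adjusted p = 0.0538). The low end of this list was miR-5107-5p, with 17.8, 133, 4.09 and 43.6 after FA and 5.05 in O3 replicate 3 as the only nonzero value after O3 (log2 difference -4.13, limma adjusted p = 0.186).

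Composition was described over the 286 miRNAs with a sequence. Of the 14 in which G and C make up at least 70% of the bases, 4 rose and 71.4% had a positive log2 difference, with a median of 1.83. Of the other 272, 9 rose and 39.3% had one, with a median of -0.37. The cut of 70% was chosen after the values were seen. Across all 286 the relation was weak (Spearman's rho 0.06, Pearson's r 0.12, across miRNAs, which share the same 8 libraries).

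Of the miRNAs typical of mesenchymal cells, 12 of 13 had a positive log2 difference, against 141 of all 328. Their median was 2.44, against -0.29 over all miRNAs, and 5 rose, which is 5 of the 16 upward calls of all 328. Their summed share of the signal was between 1.29% and 1.52% after FA and between 1.73% and 3.89% after O3. miR-143-3p, from the miR-143/145 cluster of smooth muscle and fibroblasts, stood at 369.6, 837, 67.4 and 463 after FA and at 3937, 3717, 5369 and 2832 after O3. The groups did not overlap, the means were 434 ± 317 and 3964 ± 1052 (SD, n = 4 each), and the log2 difference was 3.62 ± 0.67 (limma adjusted p = 0.0135). Its partner miR-145a-5p was at 0, 71.5, 0 and 119.6 after FA and at 145, 565, 461 and 1099 after O3 (log2 difference 5.55 ± 1.80), which did not pass the test (limma adjusted p = 0.137).

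miR-100-5p, miR-99a-5p, miR-125b-5p and miR-199b-3p were the other 4 of the list that rose. miR-100-5p stood at 41.9, 93.3, 36.8 and 44.5 after FA and at 408, 449, 505 and 328 after O3 (log2 difference 3.03 ± 0.80, limma adjusted p = 0.0538). The O3 mice were close to one another for this miRNA, the highest at 1.54 times the lowest. miR-99a-5p stood at 587, 743, 154 and 157 after FA and at 1103, 1463, 3596 and 1607 after O3 (log2 difference 2.44 ± 0.64, limma adjusted p = 0.0538). miR-199b-3p stood at 78.8, 104, 49.7 and 81.6 after FA and at 304, 677, 1115 and 408 after O3 (log2 difference 2.85 ± 0.73, limma adjusted p = 0.0538). miR-125b-5p stood at 649, 4021, 357 and 1168 after FA and at 2873, 4545, 6326 and 8466 after O3, where FA replicate 2 lay above O3 replicate 1 (log2 difference 2.33 ± 0.66, limma adjusted p = 0.0794). Unlike the other miRNAs called higher, miR-125b-5p was highest in O3 replicate 4.

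The genes of miR-99a, let-7c and miR-125b stand together in the genome in related clusters. On chromosome 16, miR-99a-5p (chr16:77598940-77598961), let-7c-5p (chr16:77599672-77599693) and a copy of miR-125b-5p (chr16:77646279-77646300) lie in introns of the noncoding gene Mir99ahg on its strand. Their log2 differences were 2.44, 0.98 and 2.33, and that of let-7c-5p did not pass the test (limma adjusted p = 0.380). let-7c-5p also comes from a gene on chromosome 15, and miR-125b-5p from a gene on chromosome 9. Their reads therefore cannot be assigned to this cluster alone. On chromosome 17, miR-99b-5p (chr17:17830194-17830215), let-7e-5p (chr17:17830366-17830387) and miR-125a-5p (chr17:17830817-17830840) had log2 differences of 0.20, -1.11 and -0.23, none of which passed the test. miR-99b-5p and miR-125a-5p carry the seeds of miR-99a-5p and miR-125b-5p. The lowest of the mesenchymal list was miR-99b-3p, from the same hairpin, with 180.4 to 257 after FA and 133 to 177 after O3 (log2 difference -0.42, limma adjusted p = 0.764).

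Of all 328 miRNAs, 4.88% rose and 43.0% had a positive log2 difference. Of the 16 typical of epithelial cells, 1 rose, 0 fell and 11 had a positive log2 difference, with a median of 1.11. Their summed share was between 0.39% and 1.22% of the signal after FA and between 1.04% and 4.29% after O3. miR-34b-3p, from the cluster of ciliated airway cells, stood at 247, 1308, 316 and 361 after FA and at 10287, 1634, 14150.4 and 1053 after O3 (log2 difference 3.18 ± 0.84, limma adjusted p = 0.0538). FA replicate 2 lay above O3 replicate 4 for this miRNA. miR-34c-3p, which has the same seed, was at 57.2, 18.2, 23.8 and 6.49 after FA and at 79.5, 184, 1336 and 221 after O3 (log2 difference 3.60, limma adjusted p = 0.188). miR-203-3p and miR-449a-5p, the highest and lowest of the list, had log2 differences of 3.77 and -2.36, and neither passed the test (limma adjusted p = 0.377 and 0.507).

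The endothelial miR-126a-3p was at 0, 0, 0 and 0.927 after FA and at 1094, 197, 189 and 0 after O3. The value of FA replicate 4 is a single read, and the log2 difference of 6.09 ± 2.08 did not pass the test (limma adjusted p = 0.174). Of the marker arms of other cells, 9 of 13 epithelial, 10 of 10 mesenchymal and 1 of 1 endothelial had a positive log2 difference. So did 3 of 5 erythroid and 1 of 1 lymphoid arms, and 1 of the 8 leukocyte and macrophage arms. Over all 328 miRNAs, 43.0% were positive. The mesenchymal markers leave out miR-99b and miR-218 of the mesenchymal list, whose only negative arm was miR-99b-3p. The epithelial markers, whose shares overlapped between the groups, took between 0.362% and 1.13% of the signal after FA and between 0.966% and 4.19% after O3, the mesenchymal markers, which did not overlap, between 0.0953% and 0.797% and between 0.958% and 2.39%, and the endothelial marker at most 9.7e-05% and 0.107%. Cells other than AM in the lavage and a change within AM cannot be told apart in bulk RNA, just as fewer cells of a type and less RNA per cell cannot, and the part of other cells in the calls was not tested. Red-cell miRNAs varied between mice within both groups: the erythroid list took 0.735%, 10.7%, 2.80% and 11.1% of the signal after FA and 1.58%, 8.98%, 2.65% and 11.1% after O3.

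**Figure D3:**
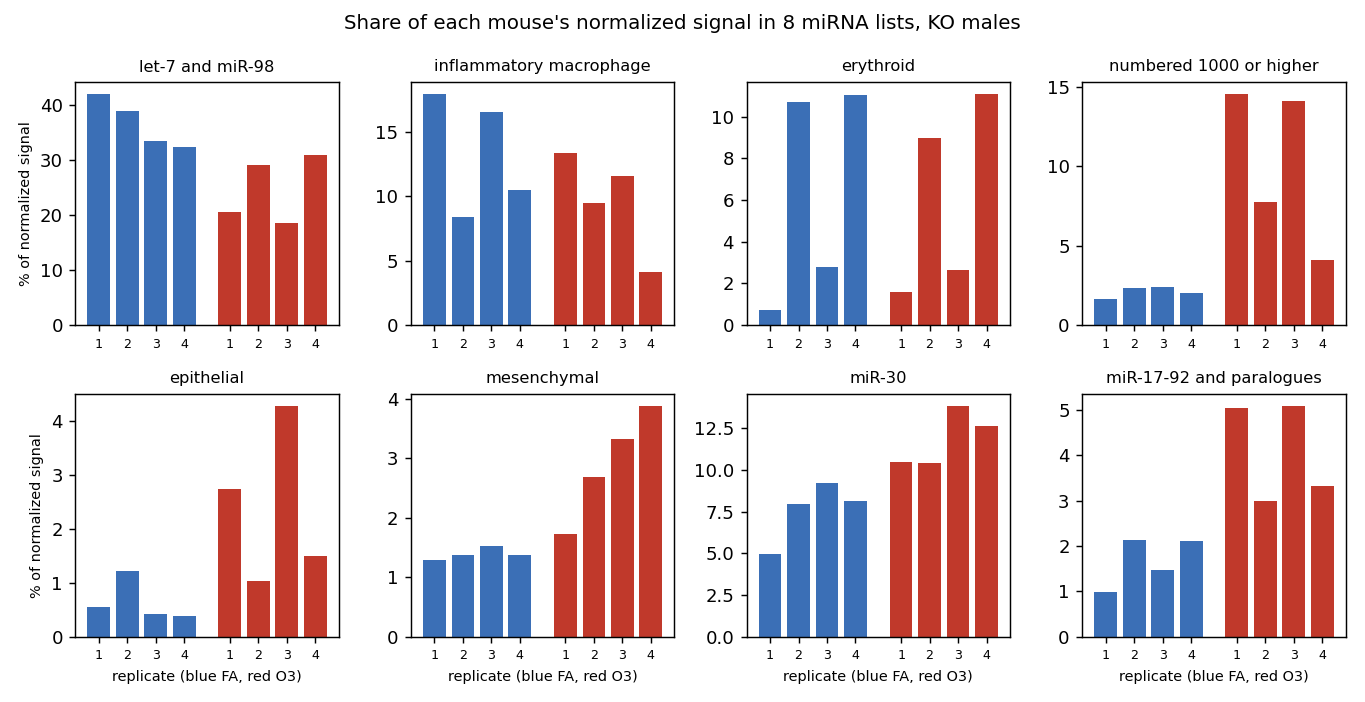
Share of each mouse's normalized signal, in percent, taken by 8 lists of miRNAs in the FA (blue) and O3 (red) mice by replicate number, each panel with its own axis from 0. The list numbered 1000 or higher is between 1.62% and 2.37% after FA and between 4.09% and 14.5% after O3, while the erythroid list is high in replicates 2 and 4 of both groups.

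miR-92b-3p was the most abundant of the called miRNAs after miR-2137. It stood at 639, 4182, 1266 and 1996 after FA and at 41517, 10869.9, 37853 and 4008 after O3, where O3 replicate 4 lay within the FA mice (log2 difference 3.33 ± 0.75, limma adjusted p = 0.0315). The median of the 15 arms of the miR-17-92 cluster and its relatives was -0.39. miR-92b-3p was the only 1 of these 15 that rose, against 16 of all 328. The miRNAs with its seed in the table were not called: miR-92a-3p at 0.22, miR-25-3p at -0.50 and miR-32-5p at -1.24 on the log2 scale. miR-17-5p, the member that names the cluster, was the lowest of the list, with 120, 110.2, 24.5 and 83.4 after FA and 61.6, 0, 10.1 and 0 after O3 (log2 difference -3.84, limma adjusted p = 0.358).

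The 1 miRNA that fell was miR-219a-1-3p, at chr17:34025010-34025031 (-) in an exon of the noncoding gene Gm26940. It stood at 22.4, 12.1, 20.4 and 36.1 after FA, from 63, 10, 30 and 39 reads, and at 0 in all 4 O3 mice. Against a floor of 3 reads in each O3 mouse it was at least 3.13-fold lower after O3, a bound that covers counting error only (limma adjusted p = 0.0346). Every miRNA of the table is above 0 in 4 or more mice, and this miRNA entered it through the FA mice alone, so that it could only differ in this direction. It was 1 of 43 miRNAs with exactly 4 nonzero values.

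The 16 miRNAs that rose did not rise evenly over the O3 mice. O3 replicate 3 was the highest O3 mouse for 8 of them, O3 replicate 1 for 7 and O3 replicate 4 for 1. O3 replicate 4 was the lowest for 12, O3 replicate 1 for 3 and O3 replicate 2 for 1. Among the FA mice, FA replicate 2 was the highest for 13 of the 16. Without O3 replicate 3 only 5 miRNAs were called, namely miR-6240, miR-1961, miR-2137, miR-143-3p and miR-6236. Without O3 replicate 4, the mouse with the fewest recovered reads, 27 were called (26 higher and 1 lower), among them all 17. Without O3 replicate 3, 4 of the calls numbered 1000 or higher, 1 of the mesenchymal list and 0 of the epithelial list remained, and without O3 replicate 4 these counts were 12, 6 and 4.

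The let-7 family, which promotes differentiation and restrains growth, was the most abundant family, and its members did not move alike. It took between 32.3% and 42.0% of the signal after FA and between 18.6% and 31.0% after O3. None of its 16 arms, miR-98-5p included, passed the test, 10 were negative, and the median log2 difference was -0.78. let-7a-5p stood at 146584, 116357, 107050 and 126552 after FA and at 64558, 80450.2, 50826 and 51444 after O3. The groups did not overlap, with a ratio of FA to O3 of 2.01, but the log2 difference of -1.02 ± 0.33 did not pass the FDR (limma adjusted p = 0.133). let-7a-5p was called lower under 5 of 9 other settings, and under 0 of the 8 that left out 1 mouse. let-7e-5p stood at 23058, 23466, 22423 and 20189.6 after FA and at 13142, 14505, 5615 and 10561 after O3, again without overlap (log2 difference -1.11 ± 0.36, limma adjusted p = 0.136). let-7f-5p was likewise lower in every O3 mouse than in every FA mouse, with a log2 difference of -1.09 (limma adjusted p = 0.315).

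let-7b-5p and let-7c-5p had the opposite sign. let-7c-5p stood at 10124, 38808, 6580.3 and 14328 after FA and at 16752, 33030.2, 23265 and 43696 after O3, and the groups overlapped (log2 difference 0.98 ± 0.52, limma adjusted p = 0.380). let-7b-5p had a log2 difference of 0.95 ± 0.64 (limma adjusted p = 0.499). The ratio of let-7c-5p to let-7a-5p within a mouse, which does not depend on the scaling of that mouse, was 0.0691, 0.334, 0.0615 and 0.113 after FA and 0.259, 0.411, 0.458 and 0.849 after O3. FA replicate 2 lay above O3 replicate 1 in this ratio, which was looked at after the values were seen and was not tested. let-7b-3p and let-7j were the highest and the lowest of the family, at 3.64 and -1.30, and did not pass the test.

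miR-1961, which carries the let-7 seed, rose. It stood at 66.8, 216, 89.2 and 17.6 after FA and at 8668, 3006, 7057 and 595 after O3, and the lowest O3 mouse was 2.76 times the highest FA mouse. The means were 97.3 ± 84.4 and 4832 ± 3695 (SD, n = 4 each), with a log2 difference of 5.52 ± 0.93 (limma adjusted p = 0.0115). let-7g-5p, whose first 13 bases it shares, stood at 50749.9, 15889.5, 15776 and 20569 after FA and at 17138, 12428, 13630.0 and 6370.4 after O3 (log2 difference -0.96, limma adjusted p = 0.347). At its mean after O3, miR-1961 remained below let-7a-5p, whose mean was 61820 ± 13942 (SD, n = 4).

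**Figure D4:**
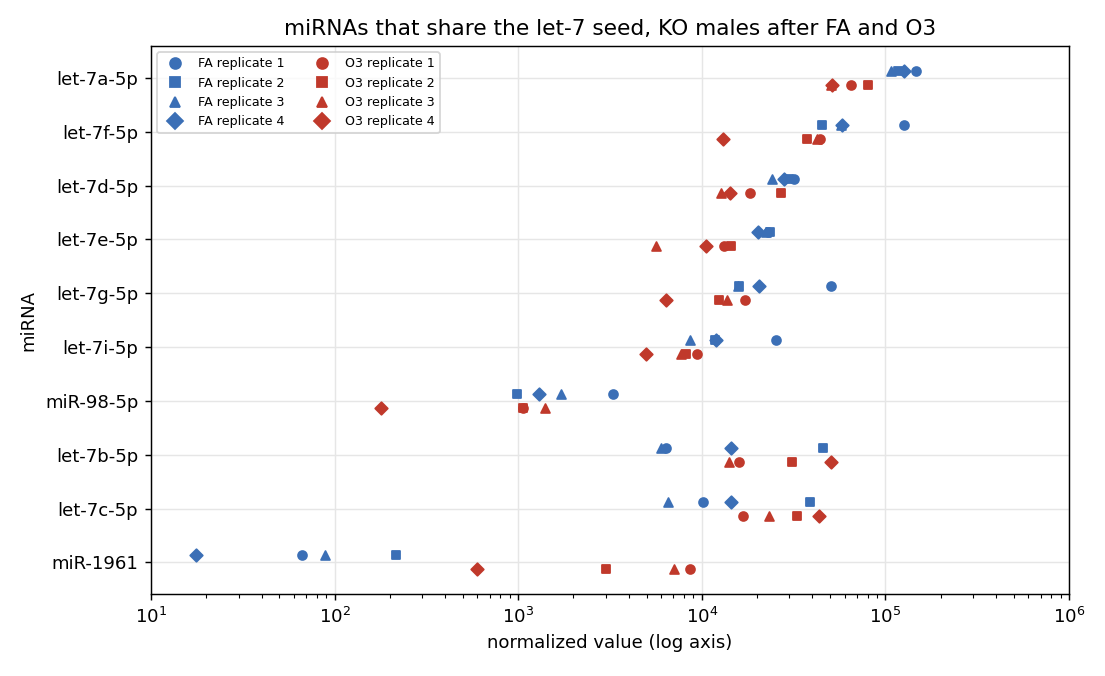
Normalized value on a log axis in each KO male for 10 miRNAs that share the let-7 seed, with FA mice in blue, O3 mice in red and a marker shape for each replicate number. For let-7a-5p, let-7e-5p and let-7f-5p all O3 mice lie left of all FA mice, whereas for miR-1961 all O3 mice lie right of them.

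The 5 miRNAs with the highest mean over the 8 mice were let-7a-5p, miR-30d-5p, miR-21a-5p, miR-486b-5p and let-7f-5p, and none of them was called. miR-30d-5p stood at 41115, 57190.5, 60673 and 70053 after FA and at 71262, 81750, 104570 and 73987 after O3, without overlap but short of the FDR (log2 difference 0.54, limma adjusted p = 0.439). miR-30a-5p, from the same family, was the miRNA nearest to the FDR among those not called: it stood at 2316, 3982, 1514 and 2254 after FA and at 14114, 4191, 15754 and 4199 after O3 (log2 difference 1.74 ± 0.52, limma adjusted p = 0.104). Of the 10 arms of the miR-30 family 7 were positive, and the lowest was miR-30c-1-3p at -2.34 (limma adjusted p = 0.504). miR-486b-5p, from red cells, ranged from 7487 to 105062 after FA and from 15925 to 79310 after O3.

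Among 12 arms of miRNAs known from inflamed macrophages, such as miR-155 and miR-146, 0 were called, 2 were positive and the median log2 difference was -1.54. miR-21a-5p, the most abundant of them, stood at 105474, 43612, 75342 and 51073 after FA and at 102141, 59355, 85217 and 19375 after O3 (log2 difference -0.21, limma adjusted p = 0.850). miR-155-5p, which rises in macrophages upon activation, stood at 862, 199, 425 and 466 after FA and at 215, 396, 211 and 0 after O3 (log2 difference -2.72, limma adjusted p = 0.439). miR-146b-5p ranged from 28377 to 75844 after FA and from 8596 to 32282 after O3 (log2 difference -1.22, limma adjusted p = 0.230). miR-511-3p, from an intron of the mannose receptor gene Mrc1, was the lowest of the list, at 23.2 to 101 after FA and at 0 in 3 of 4 mice after O3 (log2 difference -4.20, limma adjusted p = 0.27), and miR-187-5p was the highest at 1.08. Of these 12 arms, 4 were nonzero in all 8 mice.

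In the remaining lists no miRNA was called. Of the 7 arms of the blood lineage list 2 were positive (median -0.36, from miR-223-5p at -3.76 to miR-142a-3p at 1.20). Of the 8 arms of the miR-15/16 list, whose seed restrains the cell cycle, 5 were positive (median 0.09, from miR-322-5p at -4.34 to miR-195a-5p at 3.57). Of the 6 arms of miR-29, which targets collagens, 1 was positive (median -0.77, from miR-29c-5p at -2.64 to miR-29a-3p at 0.18). In the list of miR-103, miR-107 and miR-378, 0 of 5 were positive (median -1.60, from miR-378a-3p at -2.40 to miR-378a-5p at -0.07), and miR-103-3p was lower in every O3 mouse, at 4091 to 7718 against 8001 to 9278 (log2 difference -0.59, limma adjusted p = 0.380). The miR-23/27/24 list had 4 of 10 positive (median -0.31, from miR-27a-5p at -3.69 to miR-23a-5p at 0.56), and miR-181 3 of 6 (median 0.32, from miR-181a-1-3p at -1.73 to miR-181d-5p at 2.96). The list of miR-130, miR-301, miR-148 and miR-152 had 2 of 4 positive (median 0.10, from miR-130b-5p at -2.13 to miR-152-3p at 2.75). Both arms of miR-320 were positive (miR-320-3p at 0.16 and miR-320-5p at 4.79), as were both endothelial miRNAs (miR-139-5p at 0.98), and of the 6 erythroid arms 3 were positive (miR-144-5p at -1.66 and miR-144-3p at 3.12).

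For 69 hairpins both arms were listed, and the balance of the arms was compared within each mouse, as the log2 ratio of 5p to 3p. For 2 of them (2.9%) the balance differed between O3 and FA at an FDR of 0.1, and for 9 the dominant arm by the group means changed. The arms of both are shown with the seed in capitals.
miR-3060-5p: gGGAGUGCuucgugcuucug
miR-3060-3p: cCAUAGCAcagaagcacuccca
miR-322-5p: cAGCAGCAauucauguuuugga
miR-322-3p: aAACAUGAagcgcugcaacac
The balance of miR-3060 was -5.71, -0.28, 3.37 and -6.12 after FA and 12.3, 10.1, 7.17 and 5.66 after O3, a difference of 11.0 ± 2.31 on the log2 scale (limma adjusted p = 0.0589). The 3p arm itself stood at 51.5, 53.3, 0.681 and 68.6 after FA and at 10.1 in O3 replicate 3 and 0 in the other O3 mice. The balance of miR-322, a miRNA of the miR-15/16 seed family on the X chromosome, was -1.72, -1.08, -0.78 and -1.22 after FA and -4.05, -7.74, -4.79 and -8.29 after O3, a difference of -5.02 ± 1.25 (limma adjusted p = 0.0945). Its 5p arm was at 205, 52.1, 128 and 136 after FA and at 53.7, 0, 20.2 and 0 after O3, while its 3p arm ranged from 111 to 676 and from 213 to 905. Both calls rest on arms at or near 0, and a pseudocount of 0.1 in place of 1 left neither (limma adjusted p = 0.147 for miR-3060 and 0.282 for miR-322).

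Whether the response of KO males differed from that of other mice was tested as a difference of responses, since the tables of each genotype and sex were normalized separately. The 3 tests share the KO males and so are not independent of one another. Against KO females, 0 of 270 shared miRNAs passed (0%), with 27 at an unadjusted p below 0.05, and edgeR on the recovered reads also gave 0, with 18. Against co-ex males, 0 of 221 passed (0%), with 16 at an unadjusted p below 0.05, and edgeR gave 0, with 17. Against SP-A2 males 1 of 320 passed (0.312%). Of the 17 miRNAs called in KO males, 15 were listed in KO females, 17 in SP-A2 males and 15 in co-ex males. None of these was itself called in those mice, where 0 of 287, 3 of 448 and 0 of 234 miRNAs were called in all. The sign of their log2 difference was that of KO males for 15 of 15, 16 of 17 and 14 of 15. These miRNAs were picked for their response in KO males. The share of equal signs over all shared miRNAs was not counted, so these counts have no background to be set against.

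The 1 miRNA whose response differed was miR-142a-3p, at chr11:87756903-87756925 (+) in an intron of Mir142hg, a miRNA of all blood cell lineages.
miR-142a-3p: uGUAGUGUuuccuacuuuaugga
In KO males it stood at 135, 181, 502 and 158 after FA and at 928, 434, 561 and 237 after O3, which overlapped (log2 difference 1.20 ± 0.68, limma adjusted p = 0.406). In SP-A2 males it stood at 2407, 1457 and 2256 after FA and at 172, 272 and 180.0 after O3, which did not overlap (log2 difference -3.28 ± 0.40, limma adjusted p = 0.00435). The difference of the responses was 4.48 ± 0.84 (limma adjusted p = 0.0236). It was lost without FA replicate 1 or FA replicate 3 of the SP-A2 males, with a limma adjusted p of up to 0.137. The log2 differences in KO females and co-ex males were -1.10 ± 2.30 and 1.18 ± 3.58, where several mice were at 0.

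The miRNAs with the smallest unadjusted p against KO females were miR-1961, miR-5126 and miR-1957a, all of them called in KO males. Their responses in KO females were 1.08, 0.33 and 0.08 on the log2 scale, and the differences of the responses were 4.45 ± 1.41, 2.41 ± 0.85 and 2.12 ± 0.76 (limma adjusted p = 0.456 for each). In KO females, miR-5126 stood at 2258 to 7973 after FA and 3570 to 8026 after O3, on the scale of their own table. Against co-ex males the smallest p were those of miR-5126, miR-6240 and miR-183-5p, with differences of 2.65 ± 0.88, 3.80 ± 1.27 and -8.52 ± 2.94 (limma adjusted p = 0.555 for each). miR-2137 had a positive response in all of them, 3.13 in KO females, 2.09 in SP-A2 males and 6.45 in co-ex males beside 5.86 in KO males, and only the last passed the test.

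**Figure D5:**
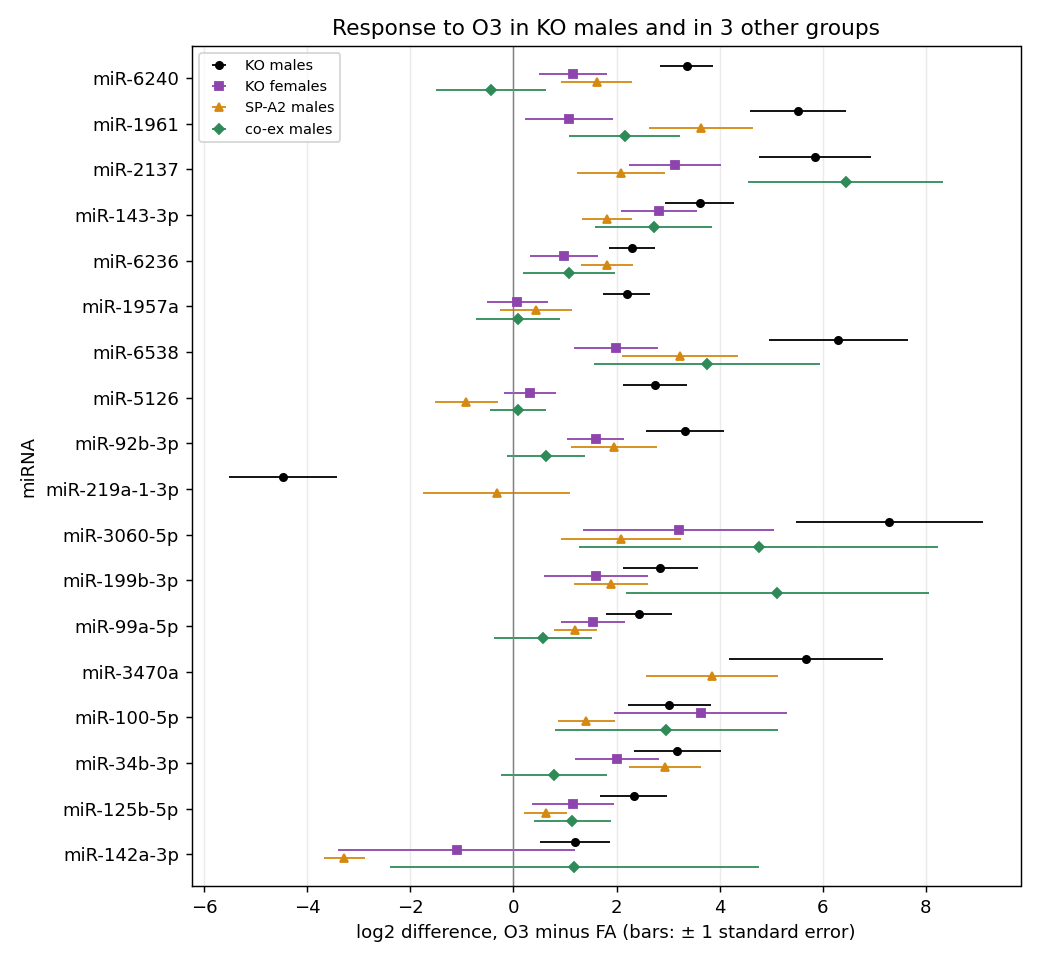
Log2 difference of O3 minus FA with its standard error (limma) in KO males (black), KO females (purple), SP-A2 males (orange) and co-ex males (green) for the 17 miRNAs called in KO males and for miR-142a-3p, each group from its own table. The response of miR-142a-3p is 1.20 in KO males and -3.28 in SP-A2 males, and miR-1957a lies near 0 in the other 3 groups, from 0.08 to 0.43.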

How the data were processed

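Small RNA of AM was sequenced by the authors from NEXTflex Small RNA v3 libraries on an Illumina HiSeq instrument (50 cycles, single reads), and CASAVA and edgeR are named in the submitters' processing notes. The aligner, miRNA reference and genome build are not given in the sources used here. The deposited values are a normalized signal, read numbers scaled by 1 factor per mouse, set separately in each table. The authors also deposited a p-value, a q-value and a rank for their own comparison, which were not used. Reads were recovered from a step in the values of each mouse, of which 100% came out whole (within 0.001 reads). In each KO male only 13 to 61 values lay within 20 steps, too few for a strict check of the step, so the reads, and the floors and count tests made from them, rest on this step. Totals over the listed miRNAs, 180625 to 2884013, are not the depth of the library, and intervals and floors cover counting error only.

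Each mouse was 1 replicate. O3 was compared with FA by limma 3.58.1 (R 4.3.3; lmFit, eBayes with trend) on log2(normalized value + 1), two-sided, with the Benjamini-Hochberg adjustment over all 328 miRNAs and the FDR of 0.1 of the study. A log2 difference on this scale can understate the change of low miRNAs. It can also overstate a fall to 0 in O3 mice, where 1 read stood for 1.68 to 3.82 on the normalized scale. The arm balance and the differences of responses were tested in the same way. Alternatives were pseudocounts of 0.1 and 10, a filter (at least 10 in as many mice as the smaller group has), an FDR of 0.05, the replicate number as a block, median-ratio rescaling, edgeR 4.0.16 and DESeq2 1.42.0 on recovered reads, and each mouse left out. The scripts were tested on simulated counts with added changes. Recovery of these changes was required at a low set spread only, not at the spread estimated from these mice.

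The members, lists and tests were chosen with earlier results of these data known. The miRNAs named are all those called, the 5 most abundant, the highest and lowest of each list, the arms called and, for each difference of responses, those called or the 3 with the smallest p. Others are named as partners by seed, cluster or list and were chosen after their values were seen. Sequences and positions are RefSeq's (GRCm38.p6), overlapping genes those of GENCODE M21 (GRCm38).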

Additional observations from a re-analysis of the deposited data

Results flagged for a closer look

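In groups of 4 mice, a mouse was picked out where its gap to the nearest other mouse, over the range of the group on the log2(value + 1) scale, was above Dixon's 95% critical value. In this way 16 groups of the named miRNAs were picked out, where chance alone picks out about 1 in 20 of the groups tested. Among the called miRNAs, these were miR-6240 in FA replicate 2 (1241, against at most 602 in the other FA mice) and miR-6236 in FA replicate 4 (536, against at most 391), both toward the O3 mice.

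O3 replicate 4, the mouse with the fewest recovered reads, was picked out as the lowest for let-7f-5p (13084, next 37604) and at 0 for miR-195a-5p, miR-152-3p and miR-378a-3p. O3 replicate 3 held the only nonzero value after O3 for miR-511-3p (30.3), miR-449a-5p (65.7), miR-29c-5p (33.7) and miR-5107-5p (5.05), and O3 replicate 2 for let-7j (2.21) and miR-30c-1-3p (44.3). O3 replicate 2 stood apart for miR-320-3p (10186, next 4565). Among the FA mice, miR-126a-3p (0.927 in FA replicate 4) and miR-195a-5p (24.5 in FA replicate 1) were nonzero in 1 mouse, and miR-320-5p was at 0 in FA replicate 1 (next 72.7).

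The response of miR-142a-3p differed between KO males and SP-A2 males by 4.48 on the log2 scale (limma adjusted p = 0.0236). It was higher after O3 in KO males by group means and lower in all 3 SP-A2 males than in their FA mice.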

How the results depend on the processing

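Of the 17 calls in KO males, 5 held without each of the 8 mice (miR-6240, miR-1961, miR-2137, miR-143-3p and miR-6236), and 9 held under all the other settings, and no call changed sign. The number called was 10 at an FDR of 0.05 and 41 with DESeq2 (32 higher, 9 lower), which kept 16 of the 17, and the cause was not tested. Without 1 mouse it was between 5 and 27: 9 without FA replicate 4, 5 without O3 replicate 3 and 27 without O3 replicate 4. Median-ratio rescaling shifted the median of all miRNAs by -0.25 and called 15 higher and 3 lower. Of the let-7 and miR-98 list, 5 arms were called lower with DESeq2 and 3 with the replicate number as a block. With median-ratio rescaling it was 2, as with edgeR without and with the filter. With the pseudocounts of 0.1 and 10, the filter in limma or an FDR of 0.05 it was 0.

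Deviations from the group means correlated at 0.198, -0.05, -0.06 and 0.05 between FA and O3 mice of the same replicate number. For the other pairs the correlation ran from -0.162 to 0.146. Across all miRNAs the numbers thus gave no clear pairing, but the erythroid list was high in replicates 2 and 4 of both groups. Whether a number marks mice handled together was not tested. With the number as a block, 24 miRNAs were called in KO males, 0 arm balances and 0 against SP-A2 males. Arm balances called were 0 with a pseudocount of 0.1, 0 at an FDR of 0.05 and 0 to 4 without 1 mouse. The difference from SP-A2 males was called for 2 miRNAs with edgeR without a filter and for 0 to 5 without 1 mouse, and that from co-ex males for 0 to 1.

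Uncalled log2 differences changed sign in 28 cases. With median-ratio rescaling, edgeR without and with the filter, and DESeq2, they were -0.090, -0.59, -0.40 and -0.39 for miR-486b-5p, -0.068, -0.21, -0.12 and -0.0393 for miR-29a-3p and -0.090, -0.29, -0.15 and -0.12 for miR-320-3p. For miR-378a-5p they were 0.48 with a pseudocount of 10 and 0.57 and 0.61 with edgeR. Without 1 mouse, the range was -0.49 to 0.31 for miR-21a-5p, -0.59 to 0.68 for miR-486b-5p, -0.061 to 2.08 for miR-187-5p, -2.75 to 0.18 for miR-144-5p, -3.32 to 0.14 for miR-378a-3p, -0.90 to 1.61 for miR-378a-5p and -0.20 to 0.40 for miR-320-3p. The lower recovered read totals of the O3 mice limit what can be said of miRNAs that are low after O3.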
